A study of Rattus norvegicus with 23 samples.

Results

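The genes Cxcl1, Cxcl2, Cxcl3, Cxcl6, Ppbp and Pf4, which encode CXC chemokines that act on neutrophils or come from platelets, were followed in the lungs of elderly rats after inhalation of TiO2. They were taken as the array probes carrying one of these symbols, which gave 8 probes for 6 genes among the 23029 genes tested. The rats were male F344 Fisher, 19 months old when inhalation began, and each array held total RNA of the accessory lobe of 1 rat. TiO2 rats inhaled the TiO2 aerosol nose-only at 10 mg/m3, 6 hours a day and 5 days a week for 4 weeks, and control rats breathed filtered air. On the day exposure ended (D0) there were 6 control and 5 TiO2 arrays, and on day 28 after it (D28) there were 6 control and 6 TiO2 arrays. The methods give 6 rats in each group, and the sixth TiO2 array of D0 was not analysed here. For the 6 TiO2 arrays of D28 the source label reads day 0, while title and description read day 28, which was used.

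These chemokines share a fold and, in their names, a CXC arrangement of cysteines. Cxcl1, Cxcl2, Cxcl3 and Cxcl6 carry the ELR residues that let a chemokine bind the receptors Cxcr1 and Cxcr2 on neutrophils, and they draw neutrophils out of the blood. In the lung they are made by macrophages, epithelium and other cells when TNF, IL-1 or IL-17 signals through NF-kB. Ppbp and Pf4 are stored in platelets and megakaryocytes. Ppbp is cut to a product that acts on Cxcr2, and Pf4 lacks the ELR residues and has other partners, Cxcr3 among them. In whole lobe RNA, fewer cells of a type and less RNA per cell cannot be told apart.

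The 6 genes are neighbours. By the positions in the array files, the 8 probes lie on chromosome 14 of rn4, on the minus strand, within 148591 bases. From the low end they run Cxcl2 (chr14:18677165-18677224), Cxcl1 (chr14:18690468-18690527), Cxcl3 (chr14:18785776-18785835 and chr14:18786864-18786923), Pf4 (chr14:18812555-18812614), Ppbp (chr14:18816439-18816498) and Cxcl6 (chr14:18825091-18825150 and chr14:18825696-18825755). Since relatives can share sequence, the probes most alike are printed here, each 5′ to 3′, with capitals for bases identical to the Cxcl6 probe when aligned without gaps. The Ppbp probe is printed to its stop codon.
Cxcl6: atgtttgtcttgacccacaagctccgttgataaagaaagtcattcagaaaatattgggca
Cxcl3: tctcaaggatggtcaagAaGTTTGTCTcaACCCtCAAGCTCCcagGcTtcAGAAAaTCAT
Ppbp: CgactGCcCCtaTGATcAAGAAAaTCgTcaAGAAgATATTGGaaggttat
Pf4: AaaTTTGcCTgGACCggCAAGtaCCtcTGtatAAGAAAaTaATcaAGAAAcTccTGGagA
The Cxcl3 probe had 32 of 43 aligned bases in common with the Cxcl6 probe, Ppbp 29 of 45 and Pf4 38 of 60. No pair of probes of different members shared an unbroken run of more than 10 bases.

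RefSeq (GRCr8) gave the promoters, 250 bases before to 50 after the start, of 4 of the 6 members, Cxcl1, Cxcl2, Cxcl6 and Ppbp, but not of Cxcl3 and Pf4. They were searched on both strands for the NF-kB consensus and for TATAAA. The last 130 bases before the start are printed 5′ to 3′ in the direction of the gene, with matches in capitals, since NF-kB is the step shared by the inducers of these genes.
Cxcl1 (chr14:17479322-17479451, minus strand): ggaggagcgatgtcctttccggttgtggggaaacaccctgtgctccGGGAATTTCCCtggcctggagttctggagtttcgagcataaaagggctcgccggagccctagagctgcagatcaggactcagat
Cxcl2 (chr14:17467256-17467385, minus strand): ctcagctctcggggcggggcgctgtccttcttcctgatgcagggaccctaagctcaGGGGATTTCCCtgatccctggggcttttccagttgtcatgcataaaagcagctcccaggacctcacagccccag
Cxcl6 (chr14:17596418-17596547, minus strand): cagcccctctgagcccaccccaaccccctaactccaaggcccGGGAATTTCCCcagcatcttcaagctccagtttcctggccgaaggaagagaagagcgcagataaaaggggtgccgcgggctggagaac
Ppbp (chr14:17587300-17587429, minus strand): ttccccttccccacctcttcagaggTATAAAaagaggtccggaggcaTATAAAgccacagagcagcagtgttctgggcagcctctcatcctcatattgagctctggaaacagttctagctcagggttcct
Matches to the NF-kB consensus, overlapping on the 2 strands, began at position -84 relative to the start of Cxcl1, -74 for Cxcl2 and -88 for Cxcl6, and none was found for Ppbp. Of all 33469 promoters, 4.18% held it. TATAAA was found in the Ppbp window only, at positions -105 and -83, and in 14.2% of all promoters. A match describes letters and is not a measured site.

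Every value below is a log2 processed signal, quantile normalized between arrays, and a gene is the mean of its probes. A difference is called past both thresholds when its limma adjusted p was below 0.05 over all genes tested and its fold change (FC) was at least 1.5. The scanner software put 69.5 to 77.9% of spots well above background, depending on the array. The 23 arrays came from 5 slides of 1 to 7 arrays, each scanned on 1 day, and control replicate 4 of D28 was alone on its slide and the only array read with the later software version. No member probe was saturated. Cxcl1, Cxcl2, Cxcl3 and Pf4 were well above background on all 23 arrays. Precision is limited by how many arrays there are.

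On D0, Cxcl1, Cxcl2, Cxcl3 and Cxcl6 had their highest signals in TiO2 rats, and 4 of 5 TiO2 rats lay above every control for each of the 4 genes. Of the 6 members only Cxcl6 was past both thresholds, where 1.06% of all genes tested were over-expressed. The median log2 FC over the 6 members was 0.69, against -0.01 over all genes. TiO2 replicate 4 lay within or below the control range for all 4 genes. It had the lowest share of spots well above background of all arrays (69.5%, next TiO2 replicate 3 of D28 with 69.6%), and the part of this in its values was not tested. Without it, Cxcl1, Cxcl2 and Cxcl6 were past both thresholds.

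**Figure D1:**
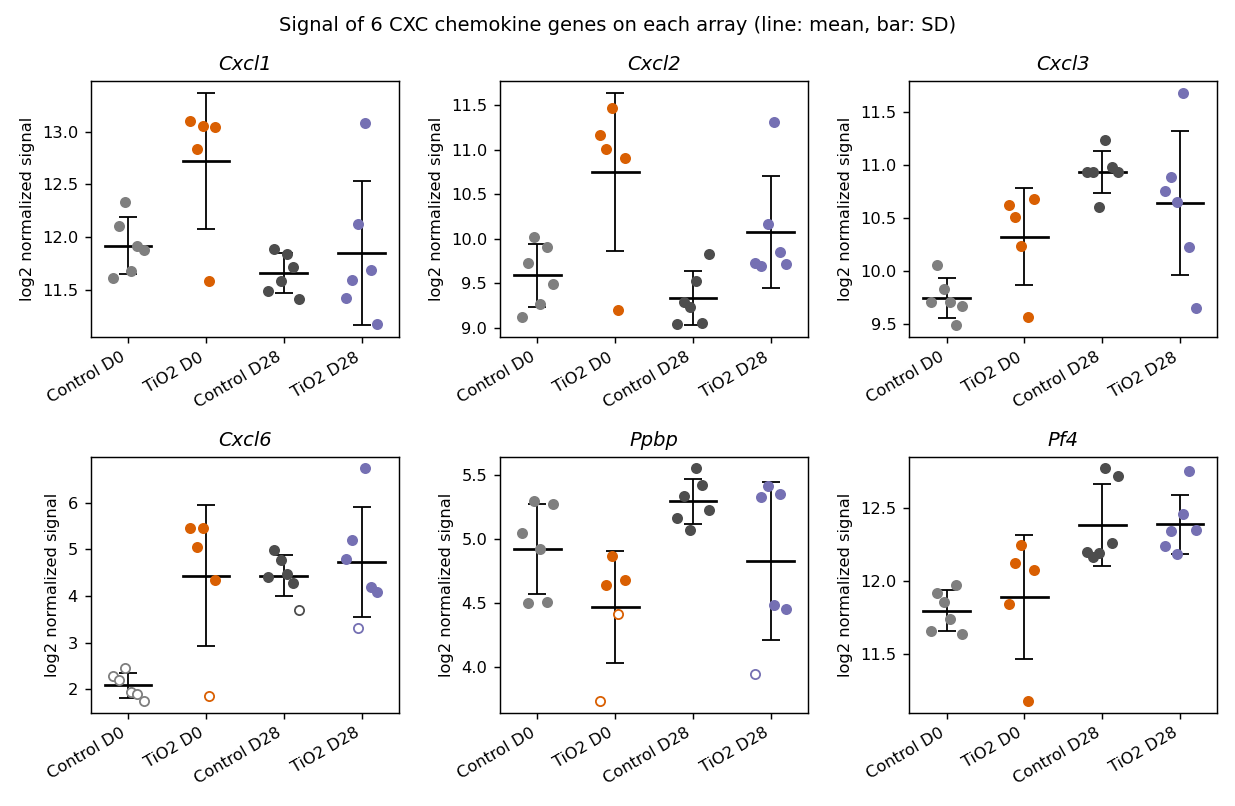
Log2 normalized signal (y axis) of each of the 6 genes on every array of the 4 groups (x axis, n = 6, 5, 6 and 6). Lines are group means and bars SDs, open points are arrays on which no probe of the gene was well above background. On D0 4 of 5 TiO2 points lie above all control points for Cxcl1, Cxcl2, Cxcl3 and Cxcl6, and all D28 control points of Cxcl3 lie above all D0 control points.

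Cxcl6, a neutrophil attractant made by epithelium and fibroblasts among others, was near background. In D0 controls its signals ran from 1.75 over a median of 2.07 to 2.46, and none of 6 was well above background. The TiO2 rats had 5.47, 5.04, 5.47, 1.85 and 4.35 for replicates 1 to 5, and all but replicate 4 were well above background. The 2 groups overlapped through replicate 4 alone. The limma call (adjusted p = 0.0198) was made on the measured signals, with all controls at background. Cxcl6 was at least 1.44-fold higher in TiO2 rats, a bound that sets each control array at no less than its dimmest signal well above background. This bound was not tested and lies below the FC threshold of 1.5. Leaving out TiO2 replicate 1, 2, 3, 4 or 5 moved this bound to at least 1.21-, 1.30-, 1.21-, 2.26- or 1.47-fold. Leaving out TiO2 replicate 1, 2 or 3 ended the call (adjusted p = 0.0637, 0.0561 and 0.0643), as did the probe at chr14:18825696-18825755 on its own (0.0528). The 2 probes of Cxcl6 had a Pearson r of 0.90 over the 23 arrays.

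Cxcl2 (macrophage inflammatory protein of the same family) had 9.12 as the lowest, 9.61 as the median and 10.02 as the highest signal in D0 controls. In TiO2 rats it had 11.16, 11.01, 11.47, 9.20 and 10.91. All but replicate 4 lay clear of the controls. This gave a log2 FC of 1.16 (95% interval 0.47 to 1.86, SE 0.33, limma adjusted p = 0.0629), and so missed the threshold. It was past both thresholds without TiO2 replicate 4 (log2 FC 1.55, adjusted p = 0.00205) and without TiO2 replicate 4 of D28 (adjusted p = 0.0280), which enters through the shared variance.

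Cxcl1, a major neutrophil attractant of rats, had 11.61, 11.89 and 12.33 as lowest, median and highest signal in D0 controls. The TiO2 rats had 13.10, 12.84, 13.05, 11.58 and 13.04. The 4 high rats lay close together and replicate 4 lay below every control. Its log2 FC was 0.80 (SE 0.29, limma adjusted p = 0.169), and 1.09 without replicate 4 (adjusted p = 0.0229).

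Cxcl3, another ligand of Cxcr2, had 9.49, 9.71 and 10.06 as lowest, median and highest D0 control signal. The TiO2 rats had 10.62, 10.51, 10.24, 9.57 and 10.68. The pattern by rat was that of Cxcl1 and Cxcl2, but the distance to the controls was smaller. The log2 FC was 0.58 (SE 0.25, limma adjusted p = 0.317) and did not pass without replicate 4 either (0.77, adjusted p = 0.137). Its 2 probes gave a Pearson r of 0.97 over the 23 arrays.

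Neither platelet chemokine was past both thresholds on D0. Ppbp was dim: D0 controls ran from 4.50 over 4.98 to 5.29, and TiO2 rats had 3.73, 4.64, 4.86, 4.41 and 4.67, of which replicates 1 and 4 were not well above background. Its log2 FC was -0.46 (95% interval -0.98 to 0.06, limma adjusted p = 0.527). Pf4 ran from 11.64 over 11.80 to 11.98 in D0 controls, and TiO2 rats had 11.84, 12.12, 12.25, 11.18 and 12.08. Its log2 FC was 0.10 (95% interval -0.25 to 0.44, limma adjusted p = 0.962). For Pf4, 3 of 5 TiO2 rats were above every control, and replicate 4 was below every control.

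Slides held both groups in part. Within slides 2, 3 and 4, with 1, 2 and 1 TiO2 rats, the D0 difference in log2 signal was 1.00, 0.94 and 1.18 for Cxcl1 and 1.43, 1.32 and 1.98 for Cxcl2. For Cxcl3 these differences were 0.57, 0.83 and 0.57. Cxcl6 was higher in the TiO2 rats of all 3 of these slides. On slide 1, where the only TiO2 rat of D0 was replicate 4, the differences were -0.18 for Cxcl1, -0.31 for Cxcl2 and -0.03 for Cxcl3, and Cxcl6 was at background in both groups. With the slide as a block, Cxcl6 was still the only member past both thresholds (adjusted p = 0.0175), and the log2 FC was 1.102 for Cxcl2, 0.77 for Cxcl1 and 0.54 for Cxcl3.

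**Figure D2:**
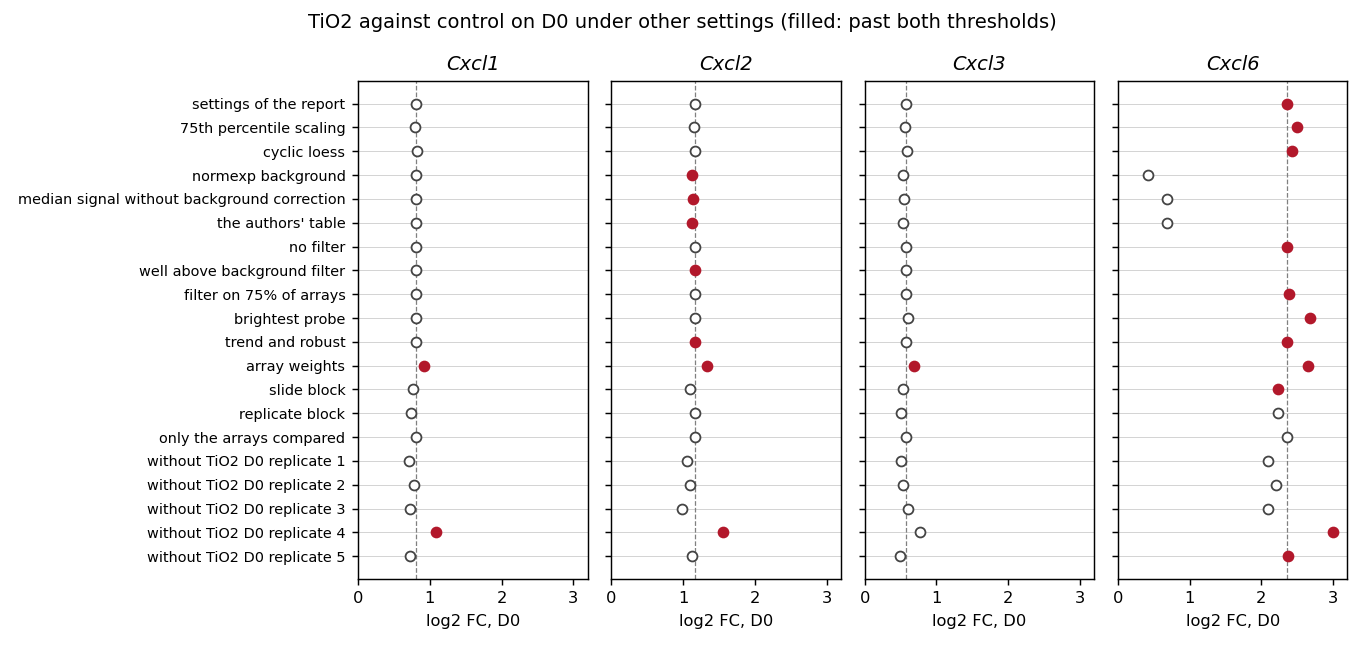
Log2 FC of TiO2 against control rats on D0 (x axis) for 4 genes under each setting or left-out TiO2 array (y axis). Filled points were past both thresholds, dashed lines mark the log2 FC of the report, and the Cxcl6 values compare with controls at background and are no estimates of size. Over settings that keep all arrays, Cxcl6 lies between 0.42 and 2.68 and Cxcl2 between 1.102 and 1.34. Leaving out 1 TiO2 array, Cxcl2 lies between 0.98 and 1.55.

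Which member was past both thresholds on D0 depended on how the background was treated. With normexp background correction, with the median signal without background correction and with the authors' table, Cxcl2 was past both thresholds in place of Cxcl6 (Cxcl2 adjusted p = 0.0409, 0.0404 and 0.0445, against 0.136, 0.0726 and 0.0803 for Cxcl6). The filter on spots well above background left Cxcl6 out of the test and also gave Cxcl2 (adjusted p = 0.0360). Array weights gave all 4 of Cxcl1, Cxcl2, Cxcl3 and Cxcl6. Fitting only the arrays compared left no member (Cxcl6 adjusted p = 0.0540).

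On D28 none of the 6 members was past both thresholds between TiO2 and control rats in limma, where 0.508% of all genes were over-expressed. At an unadjusted p below 0.05 there was 1 member, Cxcl2, where 2567 of all 23029 genes were below it, in either direction. The median log2 FC of the 6 members was 0.10. TiO2 replicate 4 of D28 was the highest array of its group for Cxcl1, Cxcl2, Cxcl3 and Cxcl6, and for Cxcl1, Cxcl2 and Cxcl6 it lay above every control by more than any other TiO2 rat.

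Cxcl2 ran from 9.05 over 9.26 to 9.83 in D28 controls and from 9.69 over 9.79 to 11.31 in TiO2 rats. Only 3 of 6 TiO2 rats were above every control. The log2 FC was 0.75 (95% interval 0.09 to 1.41, limma adjusted p = 0.351), and 0.50 without replicate 4. Cxcl1 ran from 11.41 over 11.65 to 11.89 in controls and from 11.17 over 11.64 to 13.08 in TiO2 rats, so that the medians were alike and replicate 4 stood apart. Its log2 FC was 0.19 (95% interval -0.38 to 0.76, adjusted p = 0.890) and turned to -0.06 without replicate 4.

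Cxcl3 ran from 10.60 over 10.93 to 11.23 in D28 controls and from 9.65 over 10.71 to 11.68 in TiO2 rats. The TiO2 rats spread on both sides of the controls, and the log2 FC was -0.29 (95% interval -0.79 to 0.21, limma adjusted p = 0.743). Cxcl6 ran from 3.71 over 4.44 to 4.98 in D28 controls and from 3.32 over 4.50 to 6.74 in TiO2 rats, and in each group 5 of 6 arrays were well above background. This gave a log2 FC of 0.29 (95% interval -0.81 to 1.38, adjusted p = 0.924), and -0.12 without replicate 4. Ppbp had a log2 FC of -0.47 (95% interval -0.96 to 0.03, adjusted p = 0.495), close to that of D0. Pf4 had 12.39 ± 0.28 (SD, n = 6) in controls and 12.39 ± 0.20 (SD, n = 6) in TiO2 rats (95% interval of the difference -0.32 to 0.33).

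Within the slides that held both groups on D28, Cxcl2 differed by 0.96 on slide 1 and 1.25 on slide 2, with 2 rats of each group, and by -0.14 on slide 4, with 1 of each. On slide 2 one of the TiO2 rats was replicate 4. The slide as a block gave Cxcl2 a log2 FC of 0.78 (limma adjusted p = 0.265).

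**Figure D3:**
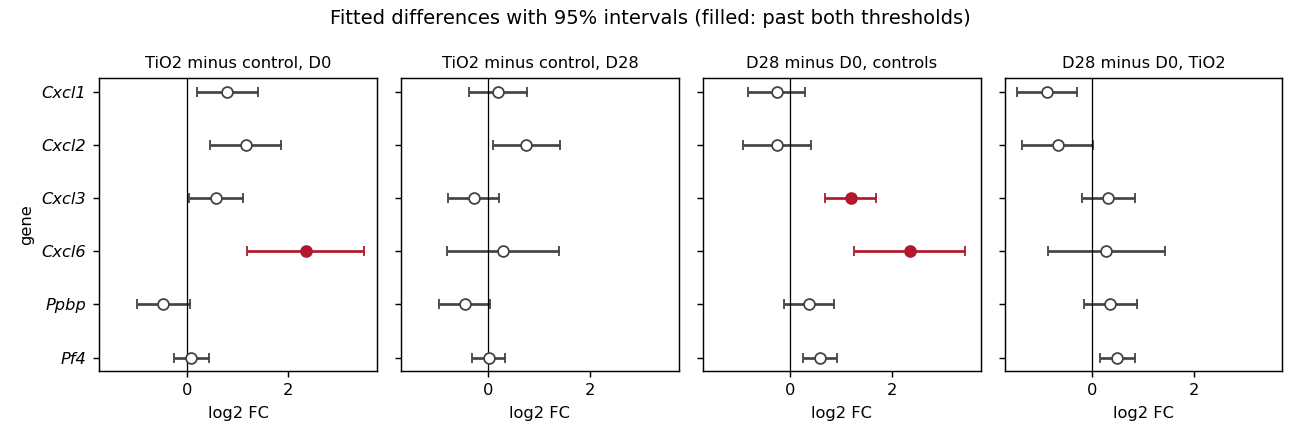
Fitted log2 FC with 95% intervals (x axis) of the 6 genes (y axis) in 4 comparisons. Filled points were past both thresholds: Cxcl6 on D0, and Cxcl3 and Cxcl6 between controls of D28 and D0. The Cxcl6 values against D0 controls are read from arrays at background and are no estimates of size.

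The controls themselves changed between the days. Of the 6 members, Cxcl3 and Cxcl6 were higher in controls of D28 than in controls of D0, past both thresholds, where 0.378% of all genes tested were higher. Control Cxcl3 had a mean of 9.74 ± 0.19 (SD, n = 6) on D0 and 10.94 ± 0.20 (SD, n = 6) on D28, with no overlap between the 2 groups. The log2 FC was 1.19 (SE 0.24, limma adjusted p = 0.0153), a FC of 2.28, and both probes stood higher on D28, with group means of 8.85 and 10.11 at one and 10.64 and 11.77 at the other. It stayed past both thresholds in each fit without 1 array and under every other setting tried, with a log2 FC between 1.12 and 1.26.

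Control Cxcl6 was well above background on 0 of 6 arrays on D0 and 5 of 6 on D28. It was at least 1.44-fold higher on D28, a bound that sets each D0 control at no less than its dimmest signal well above background. This bound was not tested and lies below the FC threshold. Leaving out any single D28 control moved this bound to between 1.34- and 1.60-fold. The limma call (adjusted p = 0.0336) was made on the measured signals, with all D0 controls at background. With only the control arrays fitted, the limma adjusted p was 0.000126, and with array weights on all arrays it was 0.00683. In the fit of all 4 groups the call was lost without any single D0 control and without D28 control replicate 2, 3, 4 or 5 (adjusted p between 0.0517 and 0.0836). It was also lost with normexp, the median signal and the authors' table (adjusted p = 0.230, 0.137 and 0.143), and at the probe at chr14:18825696-18825755 on its own (0.105). Pf4 lay higher in all 6 D28 controls than in every D0 control, with a log2 FC of 0.59 (SE 0.16, adjusted p = 0.0828), and was past both thresholds at an adjusted p only when TiO2 replicate 4 of D0 was left out (0.0223) or under normexp, the filter on spots well above background, and trend and robust estimation. Cxcl1 and Cxcl2 did not move with them, with log2 FCs of -0.26 and -0.26 (adjusted p = 0.735 and 0.793). In these rats day 28 differs from day 0 in age, in the day of killing and in the time since the filtered air sessions ended. These cannot be told apart.

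Between TiO2 rats of D28 and D0 no member was past both thresholds, where 0.369% of all genes tested were, in either direction. At an unadjusted p below 0.05, Cxcl1 and Pf4 were found, where 1775 of all 23029 genes were below it, in either direction. Cxcl1 fell short with a log2 FC of -0.88 (SE 0.29, limma adjusted p = 0.304). It was past both thresholds with array weights (adjusted p = 0.0184), without TiO2 replicate 4 of D0 (adjusted p = 0.0393) and without TiO2 replicate 4 of D28 (0.0315). Pf4 had a log2 FC of 0.50 (adjusted p = 0.328).

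The TiO2 effect was also compared between days as the D28 effect minus the D0 effect. No member was past both thresholds in limma, where 0.0304% of all genes were, in either direction. At an unadjusted p below 0.05 there were Cxcl3 and Cxcl6, where 804 of all 23029 genes were below it. Cxcl3 had a difference of -0.87 (95% interval -1.60 to -0.15, adjusted p = 0.999), made up of an effect of 0.58 on D0 and -0.29 on D28. For Cxcl1 it was -0.61 (95% interval -1.43 to 0.21) and for Cxcl2 -0.42 (95% interval -1.38 to 0.54). These comparisons share control and TiO2 arrays, so their values are not separate evidence.

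Members were then compared rat by rat, as deviations from the mean of the rat's own group. Of the 15 pairs, 6 had a Pearson r past an adjusted p of 0.05 (two-sided permutation test within groups, adjusted over 15 pairs). Cxcl1 and Cxcl2 had the highest, r = 0.88 (adjusted p = 0.0037, n = 23) and Spearman rho = 0.82 (adjusted p = 0.0013). Without TiO2 replicate 4 of D0 and TiO2 replicate 4 of D28, and with group means taken over the other 21 rats, r fell to 0.53 (permutation p = 0.019, not adjusted). Within slide 1 (7 arrays) r was 0.93 and within slide 2 (6 arrays) 0.96, but slide 1 held the first of these rats and slide 2 the second, for every pair below too. The other slides held too few arrays.

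Cxcl2 with Pf4 had r = 0.69 (permutation adjusted p = 0.043), while rho = 0.56 did not pass (adjusted p = 0.051). Without the same rats r was 0.54 (permutation p = 0.017, not adjusted), and it was 0.77 and 0.49 within slides 1 and 2. Cxcl1 with Cxcl3 had r = 0.80 (permutation adjusted p = 0.013) and rho = 0.56 (adjusted p = 0.072), and without these rats r was 0.45 (permutation p = 0.14), with 0.81 and 0.97 within slides 1 and 2. Cxcl1 with Cxcl6 (r = 0.74) and Cxcl2 with Cxcl3 (r = 0.65) rested on the same rats, since without them r was -0.02 and 0.04 (permutation p = 0.95 and 0.86). Their rho was 0.52 and 0.39 (adjusted p = 0.093 and 0.21), and r within slides 1 and 2 was 0.60 and 0.97 for the first pair and 0.67 and 0.92 for the second. Cxcl3 with Cxcl6 had r = 0.68 (permutation adjusted p = 0.043) and rho = 0.52 (adjusted p = 0.093). For this pair r was 0.61 (permutation p = 0.076) without TiO2 replicates 4 and 6 of D28, both on slide 2. With all rats of the slide, r was 0.71 within slide 1 and 0.90 within slide 2. Cxcl2 with Cxcl6 did not pass (r = 0.72, permutation adjusted p = 0.056). No pair with Ppbp passed, and its r with the other members lay between -0.18 and 0.19.

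**Figure D4:**
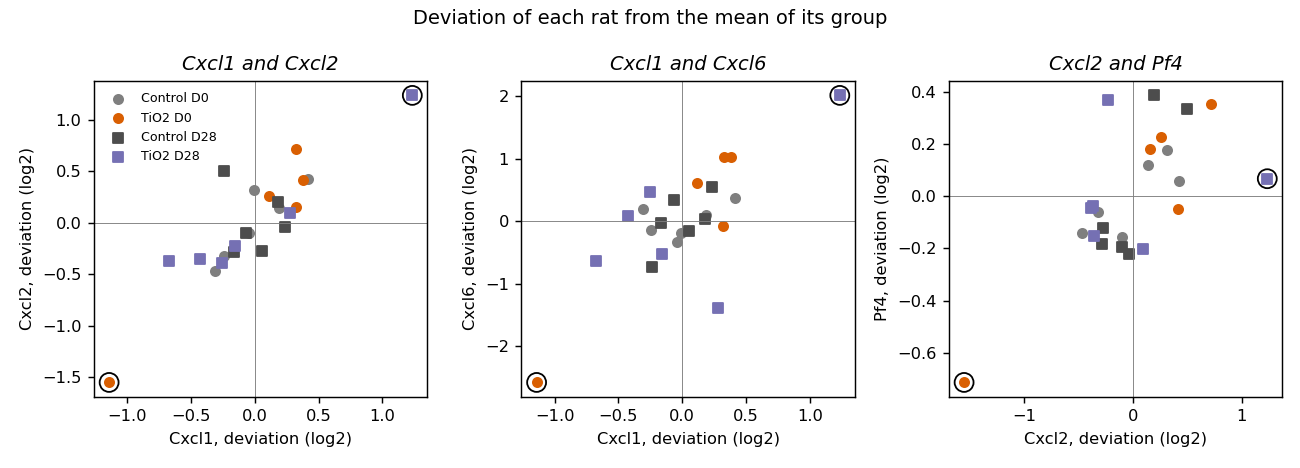
Deviation of each of 23 rats from its group mean, in log2 units, for 3 pairs of genes. Circled points are TiO2 replicate 4 of D0, at the lower left, and TiO2 replicate 4 of D28. The means include the circled rats. With means over the other 21 rats, r is 0.53 for Cxcl1 and Cxcl2, -0.02 for Cxcl1 and Cxcl6, and 0.54 for Cxcl2 and Pf4.

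Over all 23 arrays, groups included, the genes outside the members whose signal was most like each member were found by Pearson r, as a description. They are the highest of all genes tested, which raises r by selection, and r was not tested. Cxcl1 was most like Ltb (0.89), Elf3 (0.87) and Degs2 (0.82). Cxcl2 was most like Elf3 (0.88), the monocyte chemokine gene Ccl2 (0.87) and LOC102556856 (0.86). Elf3, which encodes an epithelial transcription factor, was the only gene named for more than 1 member. Cxcl3 was most like Tmem171 (0.89), Gja1 (0.83) and Ccnjl (0.83), and Cxcl6 like Tmem56 (0.86), Tgoln2 (0.85) and Slc13a2 (0.84). For Ppbp they were Rap1a (0.75), Slc29a1 (0.73) and Dact3 (0.73), and for Pf4 Prss22 (0.80), Mt3 (0.80) and Pdlim4 (0.75).

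Of the 4 receptor genes of these chemokines, none was past both thresholds on either day. Of all genes tested, 1.84% were on D0 and 0.786% on D28, in either direction. Cxcr1, a neutrophil receptor, had a log2 FC of 0.46 on D0 (limma adjusted p = 0.0930) and 0.19 on D28 (0.686). Cxcr2, the receptor shared by the ELR members, had -0.13 (adjusted p = 0.983) and -0.15 (0.934). Cxcr3 had 0.19 (0.941) and 0.44 (0.603), and Ackr1, a scavenging chemokine receptor of red cells and vessels, -0.08 (0.983) and -0.07 (0.945).

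Of 28 genes upstream of the members, which induce them, carry the signal or limit it, Tnf alone was past both thresholds on D0 and none on D28. Over all genes tested the shares were 1.84% on D0 and 0.786% on D28, in either direction. Tnf, the inflammatory cytokine, ran from 6.60 over 7.23 to 7.71 in D0 controls and from 7.76 over 8.37 to 8.59 in TiO2 rats. All 5 TiO2 rats, replicate 4 included, were above every control. The log2 FC was 1.06 (SE 0.22, limma adjusted p = 0.00897), 0.26 on D28 (adjusted p = 0.739), and -1.31 between TiO2 rats of D28 and D0 (0.00456). One of its probes on its own gave 1.08 with an adjusted p of 0.129. Il1a had 0.27 (0.630) and Il1b 0.02 (0.996) on D0, and 0.27 (0.603) and 0.12 (0.896) on D28. Il17a was well above background on 2 of 5 TiO2 and 0 of 6 control arrays of D0 and on 0 and 1 of 6 on D28, so no fold is given (adjusted p = 0.295 and 0.884). The median log2 FC of the 28 genes was 0.08 on D0 and 0.10 on D28.

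Among 12 genes of granulocyte growth and neutrophil adhesion, Sele and Itgam were past both thresholds on D0. Of all genes tested, 1.84% were on D0 and 0.786% on D28, in either direction. Sele, the endothelial selectin that slows leukocytes on vessel walls, had a log2 FC of 1.22 (limma adjusted p = 0.0245) with 5 of 5 TiO2 rats above every control. It missed a threshold without TiO2 replicate 3 or 4 (adjusted p = 0.0781 and 0.0600), without control replicate 1 or 3 (0.0530 and 0.0551), and with normexp, where the log2 FC was 0.44. Itgam, an integrin chain of neutrophils, macrophages and monocytes, had 0.98 on D0 (adjusted p = 0.000106) and 0.93 on D28 (0.000310), the only list gene past both thresholds on D28, with no overlap on either day. Csf3, the growth factor of neutrophils, had 0.47 (adjusted p = 0.811) and -0.53 (0.699). Of 9 other CXC and CX3C chemokine genes, Cx3cl1, an attractant of monocytes and lymphocytes, was past both thresholds on D0 (log2 FC 0.84, adjusted p = 0.00123), and none on D28, where it had 0.01. Like Cxcl3, it stood higher in D28 than in D0 controls (0.60, adjusted p = 0.0336).

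Markers of cells that carry or receive these chemokines were set beside them, and their part in the values above was not tested. Of 18 neutrophil markers tested, 7 were higher and 11 lower in TiO2 rats on each day, with median log2 FCs of -0.10 and -0.16. Lcn2, a granule protein of neutrophils that epithelium makes too, was the one past both thresholds, on D0 (log2 FC 1.65, limma adjusted p = 0.00122). Of all genes tested, 1.84% were on D0, in either direction. The sum of the linear signals of the 18 markers, which weighs bright genes most, ran from 23624 over 25601 to 57147 in D0 controls. In TiO2 rats of D0 it ran from 22030 over 56393 to 57356. On D28 it ran from 18886 over 29309 to 40816 in controls and from 28909 over 35274 to 66799 in TiO2 rats. Elane, Ctsg and Ltf were not well above background on any array of any group, Ngp on no TiO2 array of D0 and Mpo on no TiO2 array of D28. Elane and Ctsg were not among the 18 markers tested, while Ltf, Ngp and Mpo were.

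Of 12 platelet and megakaryocyte markers, 11 were lower on D0 and 10 on D28, with medians of -0.13 and -0.13. Of all genes tested, 1.84% were past both thresholds on D0, in either direction. Clec1b, a receptor of platelets, was past both thresholds on D0, with a log2 FC of -0.64 (limma adjusted p = 0.0256), but not without TiO2 replicate 4 (-0.49, adjusted p = 0.0863), nor without TiO2 replicate 1 or 5 or control replicate 2, 4 or 6 (adjusted p between 0.0513 and 0.0633). The call was also lost at 1 probe on its own (0.0570), with only the arrays compared (0.0618), and through a FC below 1.5 with normexp, the median signal, the authors' table and array weights (log2 FC between -0.58 and -0.50). The summed signal ran from 1458 to 1638 in controls and 1280 to 1509 in TiO2 rats on D0, and from 1391 to 1762 and 1277 to 1657 on D28. Gp1ba and Tubb1 were not well above background on any TiO2 array of either day or any D28 control array, and Gp5 on no TiO2 array of either day. All 7 red blood cell markers were lower on both days (medians -0.42 and -0.47), and of these Ahsp, which protects free globin, was past both thresholds on D0 (log2 FC -0.91, adjusted p = 0.00107). The summed red cell signal ran from 244720 to 272730 in controls and 212920 to 238300 in TiO2 rats on D0, without overlap, and from 214930 to 261590 and 190030 to 241470 on D28.

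Of 10 macrophage markers, 9 were higher on both days (medians 0.34 and 0.16). Siglec1, a sialic acid receptor of macrophages, was past both thresholds on D0 (log2 FC 0.89, limma adjusted p = 0.00239). Of all genes tested, 1.84% were on D0, in either direction. The sum of the 10 markers ran from 139290 to 181300 in controls and 158300 to 186360 in TiO2 rats on D0. On D28 it ran from 123550 to 171930 and 142360 to 173990. Each of the 9 lung epithelium markers was well above background on arrays of every group. The 13 immediate early genes, which answer to handling of tissue, had none past both thresholds, with medians of -0.20 on D0 and 0.10 on D28.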

How the data were processed

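Total RNA of the accessory lobe of 23 rats was hybridized to Agilent one-colour rat arrays. The authors deposited, per the file headers, Feature Extraction output (version 11.0.1.1 for 22 arrays, 12.0.1.1 for 1) with intensity values per spot, of which the processed signal, background-corrected within the array, was used. The authors also deposited 1 table of 62976 spots holding quantile normalized intensity values that follow the median signal (Spearman correlation of at least 0.99997); it served as an alternative. Control spots were left out. A probe was kept if it exceeded the 95th percentile of the 308 negative controls on 5 or more arrays (40417 of 45598). Log2 intensities were quantile normalized, probes of a gene were averaged, and limma 3.58.1 (R 4.3.3) fitted 4 group means (19 residual degrees of freedom); no batch was modelled, the study's own batches being unnamed. Thresholds were a Benjamini-Hochberg adjusted p of 0.05 over 23029 genes and a FC of 1.5.

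On data simulated for the D0 comparison over 23029 genes, 61% of log2 changes of 1 and 93% of changes of 2 were recovered. Correlations used 100000 permutations (numpy 2.4.6). The alternatives tried were cyclic loess, scaling to the 75th percentile, the median signal, normexp (offset 50), the authors' table, 3 filters, the brightest probe, each probe, only the arrays compared, trend and robust, array weights, slide and replicate as blocks, no FC limit, an unadjusted p, and leaving out each array. The members and gene lists were chosen with earlier results of these data known. The text names all members, list genes past both thresholds on D0 or D28, a set of 9 receptor and inducer genes, and the 3 genes most like each member.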

Additional observations from a re-analysis of the deposited data

Results flagged for a closer look

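With 24 sets of one gene in one group examined, 3 had an array whose gap to the rest exceeded Dixon's limit, where chance alone gives about 1 in 20. The sets share rats and are not independent, so this rate is only a guide. TiO2 replicate 4 of D0 was far below its group for Cxcl1 (11.58, nearest 12.84) and Cxcl2 (9.20, nearest 10.91), and TiO2 replicate 4 of D28 was far above its group for Cxcl2 (11.31, nearest 10.17).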

How the results depend on the processing

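Counts below are of genes past both thresholds. The unadjusted p keeps the FC limit. Over all 23029 genes and at any FC, an unadjusted p below 0.05 was found for 2816 on D0 and 2567 on D28. It was found for 804 in the difference between days and 1775 between TiO2 rats. Of the 6 members on D0, 1 in the report became 2 with trend and robust estimation, 4 with array weights, 3 at an unadjusted p, and 0 when fitting only the arrays compared. Leaving out 1 array gave 0 to 3. On D28, 0 became 1 at an unadjusted p, and the difference between days 0 became 2. Between controls, 2 became 1 with the median signal and the authors' table, and 1 to 3 leaving out 1 array. Between TiO2 rats, 0 became 1 with array weights and at an unadjusted p, and 0 to 1 leaving out 1 array. Of upstream and receptor genes on D0, 1 became 2 with cyclic loess, the median signal, the filter on 75% of arrays, the brightest probe, and trend and robust estimation, 3 with the filter on spots well above background, and 4 at an unadjusted p, with 1 to 2 leaving out 1 array. On D28, 0 became 1 with that filter, trend and robust estimation and an unadjusted p, and 0 to 1 leaving out 1 array.

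Same-numbered arrays of the 2 groups had correlations of -0.23 to -0.11 on D0 and -0.17 to 0.45 on D28, so the numbers were not taken to pair rats. With a replicate block the members past both thresholds were 0 on D0 (Cxcl6 adjusted p = 0.0594) and 1 between controls.

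Log2 FCs of single genes under other settings were counted by kind. Of these, 2382 were unchanged, by keeping direction and call or, within a slide, by lying within the SD of a group from the report. In part of these entries the direction could not change, so the count is no measure of robustness. Leaving out an array outside the comparison keeps the log2 FC, as do the settings without FC limit or with unadjusted p. For a gene of 1 probe, the brightest probe and each probe on its own do so too. A further 13 within-slide values lay farther off. Within slides a turned sign was counted only for genes past both thresholds in the report, so other within-slide values can have turned sign uncounted. Of the rest, 43 lost a call, 28 gained one and 65 turned sign, as follows. For Pf4 on D28 the value was -0.001376 with cyclic loess and -0.004875 with the authors' table. For the Ppbp difference between days it was 0.02747 with cyclic loess, 0.02386 with normexp, 0.04981 with the median signal, 0.04986 with the authors' table, 0.04869 with the filter on spots well above background, 0.0009619 with the filter on 75% of arrays and 0.02221 with the slide block. For Ackr1 on D0 it was 0.01705, 0.03414 and 0.03917 with normexp, the median signal and the authors' table, 0.09652 at the brightest probe, which is 1 of its probes on its own, and 0.0538 with array weights, and on D28 0.1041 at that probe and 0.02066 with the slide block. For Cx3cl1 on D28 it was -0.0059, -0.00396 and -0.02341 with normexp, the median signal and the authors' table, -0.06658 with array weights and -0.004367 with the slide block. Sele on D28 had -0.001424 at 1 probe, Il17a on D28 0.01532 with array weights, Cxcl6 between TiO2 rats -0.178 with array weights, Il1b on D0 -0.03581 with the slide block, and Cxcl6 on D0 -0.2356 within slide 1, at background.

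Leaving out 1 array, the log2 FC ran from -0.0568 to 0.325 for Cxcl1 on D28, from -0.12 to 0.57 for Cxcl6 on D28, from -0.36 to 0.57 for Cxcl6 between TiO2 rats, from -0.0696 to 0.0815 for Pf4 on D28 and from -0.19 to 0.17 for the Ppbp difference between days. It ran from -0.0887 to 0.141 for Il1b on D0, from -0.277 to 0.0662 for Cxcr2 on D0, from -0.0443 to 0.314 for Cxcr3 on D0, from -0.14 to 0.10 for Ackr1 on D0 and -0.161 to 0.0135 on D28, and from -0.125 to 0.0818 for Cx3cl1 on D28.

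The cause of these changes was not tested. Signal over background limits Cxcl6, Ppbp and Il17a, and the 5 or 6 rats of a group limit all values.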
